A study of Rattus norvegicus with 24 samples.

Results

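To examine what remained in the nucleus accumbens (NAc) after an immune challenge that was over, 4 RNA-seq libraries of LPS-Saline rats were compared with 4 libraries of Saline-Saline rats. These 8 libraries, chosen by their labels, are part of 24 in the series. LPS, lipopolysaccharide, is a component of the outer wall of Gram-negative bacteria. Every animal was a male Sprague Dawley rat, 8 weeks old on arrival, wild type and pair-housed. LPS-Saline rats received 5 intraperitoneal injections of 250 µg/kg LPS within the first 14 days, and Saline-Saline rats received saline on the same days. Both groups then received intraperitoneal saline on 5 days. The study's methods put that saline on days 18 to 22, so that 8 days passed between the last LPS and collection, whereas the labels leave a week before the first saline injection. All 8 rats had been handled, injected and, per the methods, placed in a locomotor chamber for 30 min after the last injection. The methods put euthanasia within an hour of the end of that session, so the time from injection to collection may differ between rats. The methods state 6 sequenced samples per group and the labels state 4, each from the dissected core and shell of an individual animal. The LPS-Heroin and Saline-Heroin groups, 4 libraries each, differed only in that heroin rising from 1 to 5 mg/kg replaced the later saline.

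LPS is recognized by Toll-like receptor 4 together with its co-receptor CD14, and in brain the receptor is carried mainly by microglia. Its signal runs through NF-kB to cytokines such as interleukin 1 beta, and through a second branch to interferons and the genes they switch on. The NAc is the ventral part of the striatum and consists largely of GABAergic medium spiny neurons, which carry dopamine and opioid receptors and are driven by glutamate released from cortical and limbic axons.

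Reads on genes ran from 12662360 to 14792714 in the LPS-Saline libraries and from 14128604 to 15361118 in the Saline-Saline libraries. Medium spiny neuron genes were abundant in all 8 libraries, with Ppp1r1b between 488 and 969.8 FPKM (fragments per unit of gene length, scaled to the depth of the library) and Drd1 between 41.1 and 88.5 FPKM. Several libraries stood apart in genes of neighbouring tissue. Saline-Saline 1 held genes of the choroid plexus, the epithelium that makes cerebrospinal fluid. Its FPKM of Ttr, the transthyretin gene that defines this epithelium, was 318, against 5.35 in Saline-Saline 4 and 0 to 0.311 in the other 6 libraries. Cortical glutamatergic genes were low in LPS-Saline 3, Saline-Saline 3 and Saline-Saline 1, and genes of fibroblasts and mural cells were high in LPS-Saline 4 and Saline-Saline 4. Results that moved with these libraries are given below with the values without them.

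**Figure D1:**
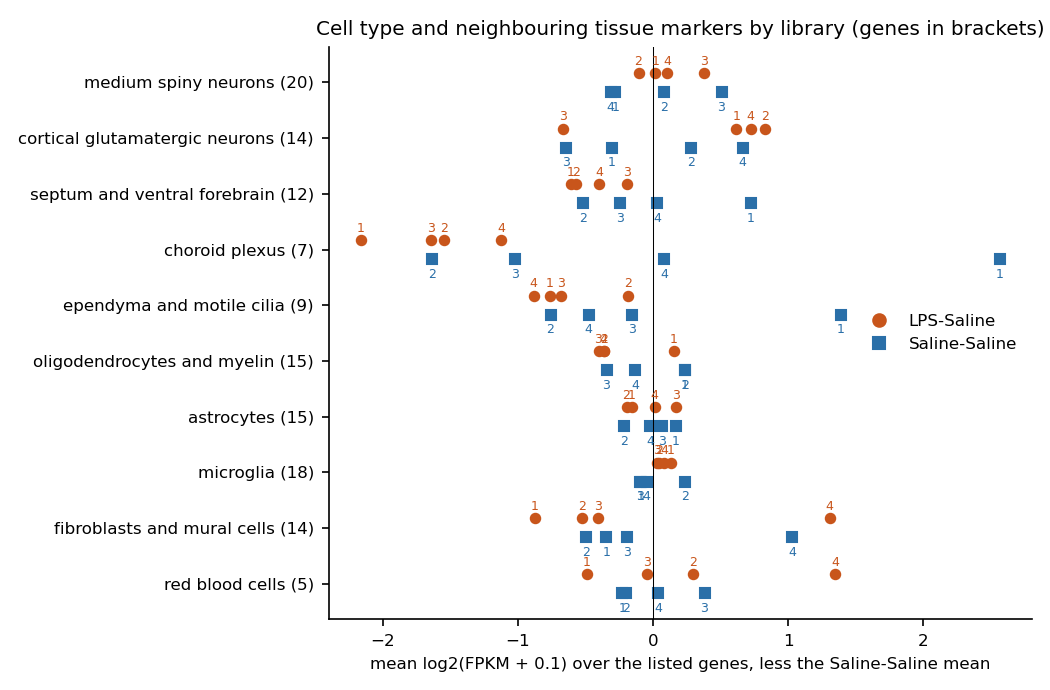
Mean log2(FPKM + 0.1) over the genes of each marker list (number of genes in brackets), relative to the mean of the Saline-Saline libraries, with circles for LPS-Saline and squares for Saline-Saline and the replicate number beside each point. Saline-Saline 1 stands at 2.57 for choroid plexus genes, and LPS-Saline 3 at -0.66 for cortical genes while the other 3 LPS-Saline libraries lie between 0.62 and 0.83.

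Differences between the groups were mostly small, and none passed adjustment for the number of genes tested. Of 15119 genes tested, 358 (2.37%) passed a pair of limits that the study used to compare data sets, namely an unadjusted p up to 0.05 together with a log2 fold change of 0.378 or more in either direction, and these are called differentially expressed genes (DEGs) here. The DEGs were 183 higher genes (1.21% of the genes tested) and 175 lower genes (1.16%). Of all genes tested, 51.9% had a positive log2 fold change. These shares are the background for the counts in the gene lists below. Below, rose and fell are written only of genes that passed both limits. The study's methods called a gene differentially expressed by an adjusted p under 0.05. No gene passed an adjusted p of 0.05 in limma with Benjamini-Hochberg adjustment, where the smallest adjusted p was 0.175, and 1002 genes (6.63%) had an unadjusted p under 0.05. The median absolute log2 fold change of DEGs with at least 10 reads per library was 0.54. The groups of 4 did not overlap in 621 genes (4.11%), of which 146 were DEGs. Genes with few reads passed the limits more often, at 8.05% of genes under 10 reads against 0.747% of genes with at least 1000 reads. Without LPS-Saline 3 the number of DEGs was 625, and over the 8 fits that leave out a library it ranged from 310 to 625. Of the 358 DEGs, 208 to 269 were kept in these fits.

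**Figure D2:**
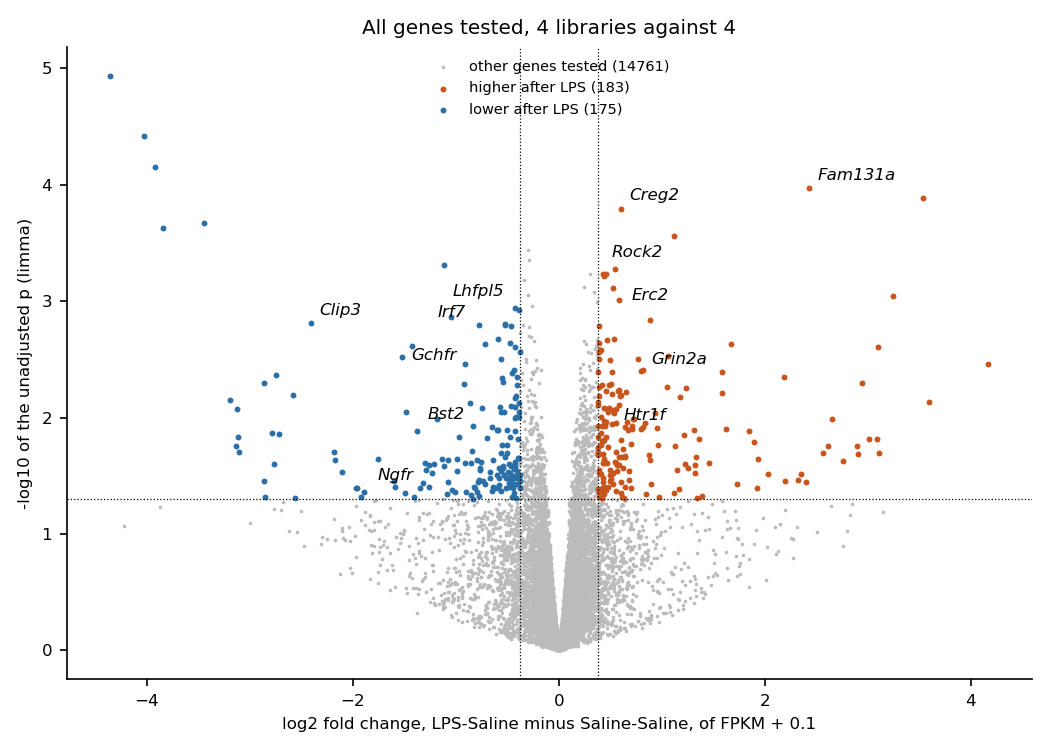
Each point is a gene, placed by its log2 fold change (LPS-Saline minus Saline-Saline, of FPKM + 0.1) and by -log10 of its unadjusted limma p, with dotted lines at the limits. Of 15119 genes, 183 lie past both limits on the higher side and 175 on the lower side, with Fam131a and Creg2 among the smallest p values.

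Genes of the LPS signal itself were at the level of the control rats or too low to test. Tlr4, the receptor, was at 0.457 ± 0.191 FPKM after LPS and 0.437 ± 0.149 FPKM after saline (SD, n = 4), from 13 to 31 reads per library. Its co-receptor Cd14 was at 0.448 ± 0.284 against 0.533 ± 0.168 FPKM, from 3 to 19 reads. The cytokine gene Il1b had 1 to 3 reads in every library, Il6 had 1 to 5, Tnf had 0 to 2, and the chemokine gene Ccl2 had 0 to 7. At this depth a difference in these cytokine genes was not detectable. Il6 was at 0.325, 0.331, 0.148 and 0.139 FPKM in LPS-Saline 1 to 4 and at 0.119, 0.19, 0.133 and 0.0652 FPKM in Saline-Saline 1 to 4, and the groups overlapped.

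Among 18 tested genes of Toll-like receptor 4 signalling, 15 of NF-kB and its inhibitors and kinases, 15 inflammatory mediators and receptors, and 16 of complement, none passed the limits in either direction. Their median log2 fold changes were -0.03, -0.04, 0.10 and -0.05, beside 0.01 for all genes tested. With a library left out, at most 1 gene of each list passed, and all but the median of the mediators changed sign in 1 or more of these fits. Nfkbia, an inhibitor that NF-kB itself induces, was at 18.1 ± 3.06 FPKM after LPS and 18.9 ± 3.61 FPKM after saline (SD, n = 4). The cyclooxygenase gene Ptgs2, which in forebrain also follows neuronal activity, had the largest positive fold change of the mediators, 0.67 ± 0.31 on the log2 scale (SE), with a limma p of 0.0631.

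Interferon-stimulated genes were lower after LPS in 15 of 20 tested members, with a median log2 fold change of -0.18, and 3 of the 20 fell and none rose. The 3 were Irf7, the transcription factor that amplifies type I interferon production, Bst2, which encodes tetherin, a membrane protein that holds budding viruses at the cell surface, and Oasl2, an antiviral oligoadenylate synthetase-like gene. Because interferon-stimulated genes share a known promoter element, the 250 bases before each start site are shown, from RefSeq on build GRCr8. They are written 5′ to 3′ on the gene's strand, and capitals mark matches on either strand to GAAA, any 2 bases and GAAA again, the core of the interferon-stimulated response element.
Irf7 (chr1:205800024-205800273, minus strand): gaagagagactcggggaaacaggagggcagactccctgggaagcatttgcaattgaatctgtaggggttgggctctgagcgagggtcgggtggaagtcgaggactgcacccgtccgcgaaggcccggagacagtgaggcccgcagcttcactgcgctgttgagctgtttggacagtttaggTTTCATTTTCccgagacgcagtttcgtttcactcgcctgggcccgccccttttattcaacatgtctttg
Oasl2 (chr12:47383186-47383435, minus strand): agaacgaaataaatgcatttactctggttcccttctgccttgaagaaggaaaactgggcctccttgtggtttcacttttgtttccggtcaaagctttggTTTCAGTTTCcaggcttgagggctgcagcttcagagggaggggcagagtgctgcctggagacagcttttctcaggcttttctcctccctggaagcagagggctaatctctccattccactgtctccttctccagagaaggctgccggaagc
Bst2 (chr16:18254968-18255217, minus strand): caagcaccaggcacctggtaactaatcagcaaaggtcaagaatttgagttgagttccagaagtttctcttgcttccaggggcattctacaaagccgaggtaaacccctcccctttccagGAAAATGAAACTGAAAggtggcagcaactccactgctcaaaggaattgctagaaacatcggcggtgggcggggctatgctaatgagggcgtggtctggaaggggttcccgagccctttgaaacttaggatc
Each of the 3 windows holds the motif, and Bst2 holds 2 matches that overlap each other. In the table of promoters, 3.41% of 33469 windows of this length hold it, as do 9 of the 12 tested interferon-stimulated genes with an entry. A match describes the letters of the window and says nothing of whether a factor bound there in these rats.

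Irf7 (chr1:214248837-214252456, minus strand, build rn6) was at 1.44, 1.12, 1.06 and 1.18 FPKM in LPS-Saline 1 to 4 and at 1.95, 2.24, 2.07 and 2.18 FPKM in Saline-Saline 1 to 4. All 4 LPS-Saline libraries lay below all 4 Saline-Saline libraries. Irf7 fell by 0.77 ± 0.17 on the log2 scale (SE, limma p = 0.00161, adjusted p = 0.657, exact permutation p = 0.0286), and the exact permutation p of 0.0286 is the smallest that 4 against 4 can give. Any gene without overlap of the groups has this p. It is therefore no further support for the leading genes given further below, Irf7 among them, which were chosen for no overlap. Irf7 passed the limits in all 8 fits without a library, from 27 to 67 reads, but not in the fit of all 4 injection groups together. It overlaps Phrf1 on the other strand, so its level is uncertain where counting ignored strand.

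Bst2 was at 2.51, 1.9, 2.86 and 4.34 FPKM after LPS and at 4.45, 6.62, 3.73 and 5.78 FPKM after saline. LPS-Saline 4 lay above Saline-Saline 3, so the groups overlapped. The log2 fold change was -0.83 ± 0.26 (SE, limma p = 0.0117, adjusted p = 0.679, exact permutation p = 0.0571), and it stayed past the limits without any single library. Oasl2 was at 1.12, 0.645, 1.05 and 0.522 FPKM after LPS and at 1.56, 2.09, 1.05 and 1.3 FPKM after saline, which overlapped. On the log2 scale the difference was -0.79 ± 0.32 (SE, limma p = 0.0356, adjusted p = 0.736, exact permutation p = 0.0857). Oasl2 no longer passed without LPS-Saline 2 or 4 or without Saline-Saline 1, 2 or 4, with fold changes of -0.61 to -0.94 over the 8 fits.

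Other interferon genes of the list did not pass the limits. Isg15, a ubiquitin-like protein induced by interferon, had a log2 fold change of -0.38 ± 0.31 (SE), and Stat2, which helps to carry the interferon signal to the nucleus, had a value of 0.10 ± 0.11 (SE). Without LPS-Saline 4, the library with the highest levels of the lists for fibroblasts (1.31), red blood cells (1.35) and antigen presentation (0.67, all relative to the Saline-Saline mean), 5 members fell. The part of those cells in the result was not tested.

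Microglia and astrocyte genes did not pass the limits. None of 18 tested microglial genes and none of 15 astrocyte genes was a DEG, with median log2 fold changes of 0.03 and -0.08, and at most 1 gene of each passed with a library left out. The median of the microglial genes was at -0.00 without Saline-Saline 3. Aif1, which encodes the microglial protein Iba1, was at 9.53 ± 0.538 FPKM after LPS and 10.1 ± 2.74 FPKM after saline (SD, n = 4). P2ry12, the purinergic receptor of resting microglia, was at 19.9, 13.8, 23.6 and 20 FPKM after LPS and at 8.52, 16.7, 16.2 and 16.1 FPKM after saline. The highest values of P2ry12 were in LPS libraries, but LPS-Saline 2 lay below 3 of the Saline-Saline libraries, and the difference of 0.45 ± 0.24 (log2, SE) had a limma p of 0.0908 and passed only in the fit without LPS-Saline 2, of the 8 fits that leave out a library. P2ry12 overlaps Med12l on the other strand, so its level is uncertain. Gfap, the intermediate filament of astrocytes, was at 132 ± 18.9 FPKM after LPS and 149 ± 32.4 FPKM after saline (SD, n = 4). Lcn2, a secreted protein of reactive astrocytes, had 1 to 9 reads.

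In the lists of reactive microglia, reactive astrocytes and antigen presentation, 0 of 13, 0 of 11 and 0 of 15 tested genes were DEGs. Of 5 tested genes of perivascular and peripheral myeloid cells, Ly86 rose, which encodes MD-1, a partner of the Toll-like receptor homologue RP105. Its FPKM was 2.05, 1.71, 2.84 and 2.4 after LPS and 1.54, 1.75, 1.14 and 1.37 after saline. Only LPS-Saline 2 and Saline-Saline 2 crossed. For Ly86 the log2 fold change was 0.59 ± 0.21 (SE, limma p = 0.0217, adjusted p = 0.729, exact permutation p = 0.0571), from 18 to 40 reads, and it did not pass without LPS-Saline 3, LPS-Saline 4 or Saline-Saline 3 (0.47 to 0.71 over the 8 fits). In bulk tissue, fewer cells of a type and less RNA per cell cannot be told apart, here or in the other lists.

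**Figure D3:**
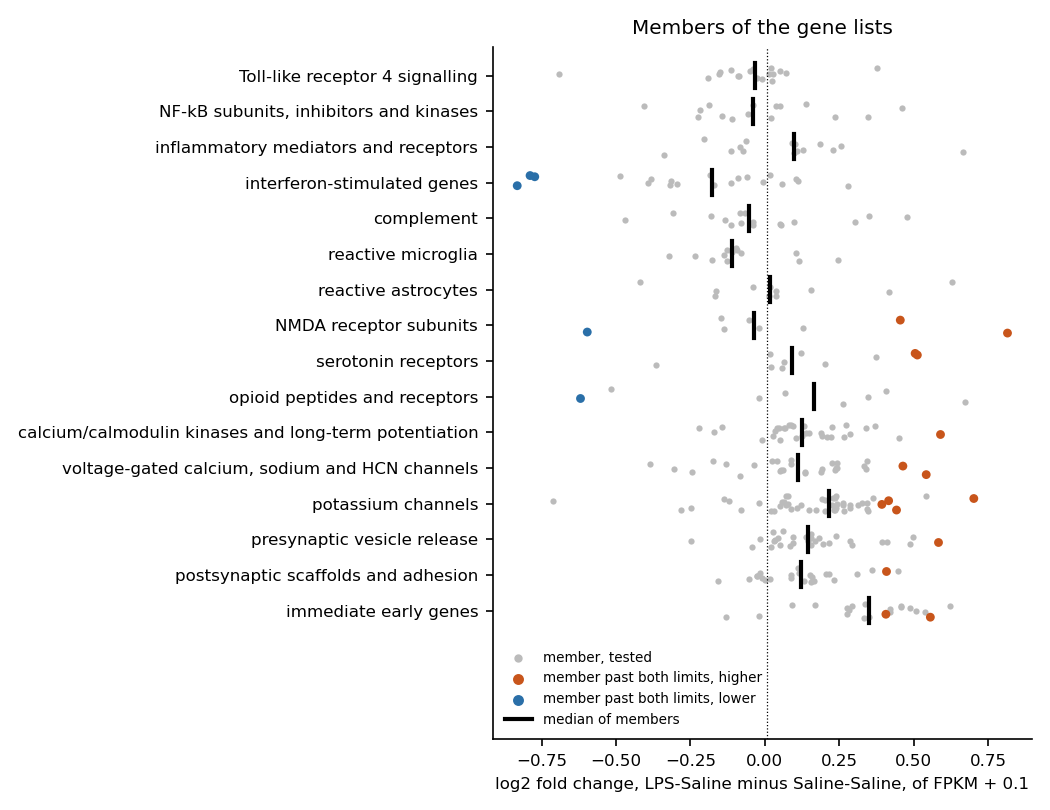
Log2 fold changes (LPS-Saline minus Saline-Saline, of FPKM + 0.1) of the tested members of 16 gene lists, with coloured points for members past both limits, a bar for the median of each list and a dotted line for the median of all genes tested. The inflammatory lists have medians between -0.18 and 0.10. The lists of voltage-gated and potassium channels, kinases, vesicle release, scaffolds and immediate early genes have medians between 0.11 and 0.35. Those of NMDA receptor subunits, serotonin receptors and opioid genes are -0.04, 0.09 and 0.17.

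All 15 tested genes of oligodendrocytes and myelin had negative log2 fold changes, and none passed the limits. Their median was -0.23, and Mbp, myelin basic protein, had a value of -0.42 ± 0.20 (SE). The mean level of the list in LPS-Saline 1, relative to the Saline-Saline mean, was 0.15, above 2 of the Saline-Saline libraries, while the other 3 LPS-Saline libraries lay between -0.40 and -0.36. Without LPS-Saline 1 the median was -0.38 and 8 of the 15 fell, and without Saline-Saline 3 it was -0.35 and 6 fell. In the heroin-injected rats all 15 had positive values for the LPS contrast, with a median of 0.15. For the 20 medium spiny neuron genes the median was 0.07, and none passed. Without Saline-Saline 3 it was 0.23 and 4 genes rose, and it was -0.02 without Saline-Saline 1 and -0.01 without Saline-Saline 4.

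Genes of tissue bordering the ventricle were highest in Saline-Saline 1. All 7 tested choroid plexus genes, all 9 of ependyma and motile cilia and 9 of 12 of septum and ventral forebrain were lower after LPS, with 1 DEG in each list, and their medians of -1.69, -0.44 and -0.44 were -0.63, -0.08 and -0.17 without Saline-Saline 1. The filter takes the mean FPKM over all 8 libraries. A gene high almost only in Saline-Saline 1, such as Ttr, passes through that library and is then bound to be lower after LPS. The counts of lower genes in these lists are therefore no evidence of a difference with LPS. The 3 DEGs were Kcne2, a potassium channel subunit of choroid plexus, Tppp3, a tubulin-binding protein of ciliated cells that overlaps Lrrc36 on the other strand and is uncertain for it, and Ngb, neuroglobin. Their values in Saline-Saline 1 were 2.42, 57.9 and 5.66 FPKM, the highest of the 8 libraries for each. None of them passed the limits without Saline-Saline 1, with log2 fold changes closest to 0 over the 8 fits of -0.83, -0.29 and -0.34. They also did not pass without LPS-Saline 4, and Kcne2 without LPS-Saline 3, Tppp3 without LPS-Saline 1 or Saline-Saline 2, and Ngb without LPS-Saline 2 or Saline-Saline 2.

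NMDA receptors are glutamate-gated channels built from the obligatory subunit Grin1 and Grin2 subunits that set their kinetics. Of 8 tested subunit genes, Grin2a and Grin2b rose and Grin2d, an early and interneuron-rich subunit, fell. Grin1 was at 108 ± 5.74 FPKM after LPS and 110 ± 6.47 FPKM after saline (SD, n = 4).

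Grin2a (chr10:5930298-6119990, plus strand, build rn6) was at 7.06, 5.6, 7.21 and 6.12 FPKM in LPS-Saline 1 to 4 and at 2.97, 2.65, 5.33 and 4.11 FPKM in Saline-Saline 1 to 4. The groups did not overlap. Grin2a rose by 0.82 ± 0.21 on the log2 scale (SE, limma p = 0.00393, adjusted p = 0.661, exact permutation p = 0.0286), and it passed the limits in all 8 fits without a library. Grin2b was at 4.67, 3.49, 4.28 and 3.05 FPKM after LPS and at 3.13, 2.16, 3.43 and 2.5 FPKM after saline, with overlap. It rose by 0.46 ± 0.19 (log2, SE, limma p = 0.0421, adjusted p = 0.736, exact permutation p = 0.114) and lost the call without LPS-Saline 1, 2 or 3 or Saline-Saline 2 or 4 (0.34 to 0.56). Grin2b overlaps a gene model on the other strand.

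Grin2d was at 3.01, 5.03, 6.68 and 3.43 FPKM after LPS and at 6.95, 5.59, 7.13 and 6.78 FPKM after saline. LPS-Saline 1 and 4 were low, whereas LPS-Saline 3 lay within the control range. The log2 fold change was -0.60 ± 0.23 (SE, limma p = 0.0311, adjusted p = 0.736, exact permutation p = 0.0571), and the call was lost without LPS-Saline 1 or 4 or Saline-Saline 1, 3 or 4 (-0.80 to -0.43). No AMPA or kainate subunit of 18 tested, no metabotropic glutamate receptor of 7 and no GABA-A subunit of 14 was a DEG, and with a library left out at most 1, 1 and 2 of them passed. The median log2 fold changes of these lists were 0.03, 0.05 and 0.10, and that of the NMDA receptor subunits was -0.04.

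Of 10 tested serotonin receptors, Htr1f and Htr2a rose. Htr2a, the Gq-coupled receptor of cortical and striatal neurons, was at 14.4, 10.5, 8.96 and 15 FPKM after LPS and at 8.04, 9.45, 6.31 and 10.3 FPKM after saline. LPS-Saline 1 and 4 were high and the groups overlapped. On the log2 scale the difference was 0.51 ± 0.20 (SE, limma p = 0.0338, adjusted p = 0.736, exact permutation p = 0.114), and without LPS-Saline 1 or 4 or Saline-Saline 1 or 3 it did not pass (0.37 to 0.64). Htr1f, a Gi-coupled receptor, was at 2.18, 2.02, 1.99 and 2.18 FPKM after LPS and at 1.46, 1.6, 1.49 and 1.22 FPKM after saline. All LPS-Saline libraries lay above all Saline-Saline libraries, at 25 to 45 reads. The log2 fold change of Htr1f was 0.51 ± 0.16 (SE, limma p = 0.0113, adjusted p = 0.679, exact permutation p = 0.0286), past the limits in all 8 fits without a library but not with a pseudocount of 1.

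Potassium channel genes were mostly higher. Of 48 tested, 41 had positive log2 fold changes, beside 51.9% of all genes tested, and the median was 0.21. In this list 4 rose, beside 1.21% of all genes tested, and none fell. The mean log2 level of the list, relative to the Saline-Saline mean, was 0.20, 0.21, 0.10 and 0.15 in LPS-Saline 1 to 4 and -0.03, 0.02, -0.07 and 0.08 in Saline-Saline 1 to 4. Every LPS-Saline library lay above every Saline-Saline library, with the closest values at 0.10 and 0.08. The same held for the lists of calcium/calmodulin kinases and long-term potentiation, postsynaptic scaffolds and adhesion, and calcium pumps, exchangers and release channels. Their closest values were 0.08 and 0.05, 0.08 and 0.05, and 0.07 and 0.05. In all other lists of the 44 scored the groups overlapped, among them presynaptic vesicle release, voltage-gated channels and immediate early genes. The 4 potassium channel genes that rose were Kcnh1 and Kcnh7, of the ether-à-go-go family, Kcna2, a delayed rectifier of axons, and Kcnv1, a silent subunit that modifies other channels. Kcnh1 was at 13.5, 12.7, 12.4 and 12.1 FPKM after LPS and at 8.1, 9.95, 10.2 and 10.4 FPKM after saline, without overlap. Between groups the difference was 0.39 ± 0.09 on the log2 scale (SE, limma p = 0.00231, adjusted p = 0.659, exact permutation p = 0.0286), close to the limit, and it lost the call without LPS-Saline 1 or Saline-Saline 1 (down to 0.31).

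Kcnh7, Kcna2 and Kcnv1 had log2 fold changes of 0.70 ± 0.24, 0.44 ± 0.16 and 0.42 ± 0.14 (SE), and the groups overlapped in the last 2. Kcnh7 contains the model of the small RNA SNORA17 on its own strand, so its level is uncertain. Kcnh7 and Kcnv1 did not pass without LPS-Saline 1, Kcnv1 also not without Saline-Saline 1, and Kcna2 not without LPS-Saline 3, Saline-Saline 2 or Saline-Saline 3. Kcnma1, the large-conductance calcium-activated channel, was at 12.5 ± 0.854 FPKM after LPS and 9.85 ± 1.12 FPKM after saline (SD, n = 4), a log2 difference of 0.34 that stayed under the fold limit. The number of potassium channel genes that rose was 2 without Saline-Saline 1, 1 without LPS-Saline 1, 6 without LPS-Saline 2 or Saline-Saline 4, and 7, with 2 that fell, without LPS-Saline 3.

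Among 28 tested genes of voltage-gated calcium, sodium and related channels 2 rose and none fell, and Cacna2d1 is described here. Cacna2d1 encodes the alpha2delta-1 subunit, which brings calcium channels to the membrane and binds gabapentin. It was at 24.9, 22.3, 24.6 and 23.3 FPKM after LPS and at 15, 16.7, 21.5 and 16.2 FPKM after saline, without overlap, with a log2 fold change of 0.46 ± 0.11 (SE, limma p = 0.00216, adjusted p = 0.659, exact permutation p = 0.0286) that passed in all 8 fits. The number of these channel genes that rose was 1 without LPS-Saline 1 or Saline-Saline 2, 3 without LPS-Saline 2 or Saline-Saline 3, and 4 without LPS-Saline 4. Without LPS-Saline 3, 1 gene fell.

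Of 31 genes of calcium/calmodulin kinases and long-term potentiation, 27 had positive fold changes, with a median of 0.12 on the log2 scale. Adcy1, the calmodulin-stimulated adenylyl cyclase, rose and none fell. Its FPKM was 16.7, 20.5, 13.4 and 16.8 after LPS and 8.94, 12.5, 8.14 and 16.4 after saline, where Saline-Saline 4 reached the LPS range. The log2 fold change was 0.59 ± 0.22 (SE, limma p = 0.0258, adjusted p = 0.729, exact permutation p = 0.0571), and it did not pass without LPS-Saline 2 or 4 or Saline-Saline 1 or 3 (0.44 to 0.78). Prkcb, a protein kinase C, had no overlap between groups at 105 ± 5.33 and 81.5 ± 10.9 FPKM (SD, n = 4), a log2 difference of 0.37, just under the fold limit. The list held no gene that rose without Saline-Saline 1, 3 without Saline-Saline 3 and 4 without LPS-Saline 2.

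Synaptic genes were shifted by little. Of 31 genes of presynaptic vesicle release, 28 had positive fold changes, with a median of 0.15 on the log2 scale, and Erc2 rose. Erc2, a scaffold of the active zone, was at 14.9, 12.5, 12.4 and 11.7 FPKM after LPS and at 7.21, 10.3, 8.27 and 8.66 FPKM after saline. No library crossed between groups. On the log2 scale the difference was 0.58 ± 0.12 (SE, limma p = 0.000984, adjusted p = 0.62, exact permutation p = 0.0286), and it passed in all 8 fits, whereas the number of genes of this list that rose was 4 without LPS-Saline 3 and 2 without LPS-Saline 4 or Saline-Saline 4. Of 24 postsynaptic scaffold and adhesion genes, Homer1 rose, a scaffold that ties metabotropic glutamate receptors to calcium stores and has a short form induced by activity, which gene counts cannot separate. Homer1 was at 39.7 ± 3.88 FPKM after LPS and 30.3 ± 6.02 FPKM after saline (SD, n = 4), and without LPS-Saline 1, Saline-Saline 1 or Saline-Saline 4 it did not pass (0.33 to 0.53). That list held no gene that rose without LPS-Saline 1 or Saline-Saline 1 and 2 without LPS-Saline 3, LPS-Saline 4 or Saline-Saline 3.

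**Figure D4:**
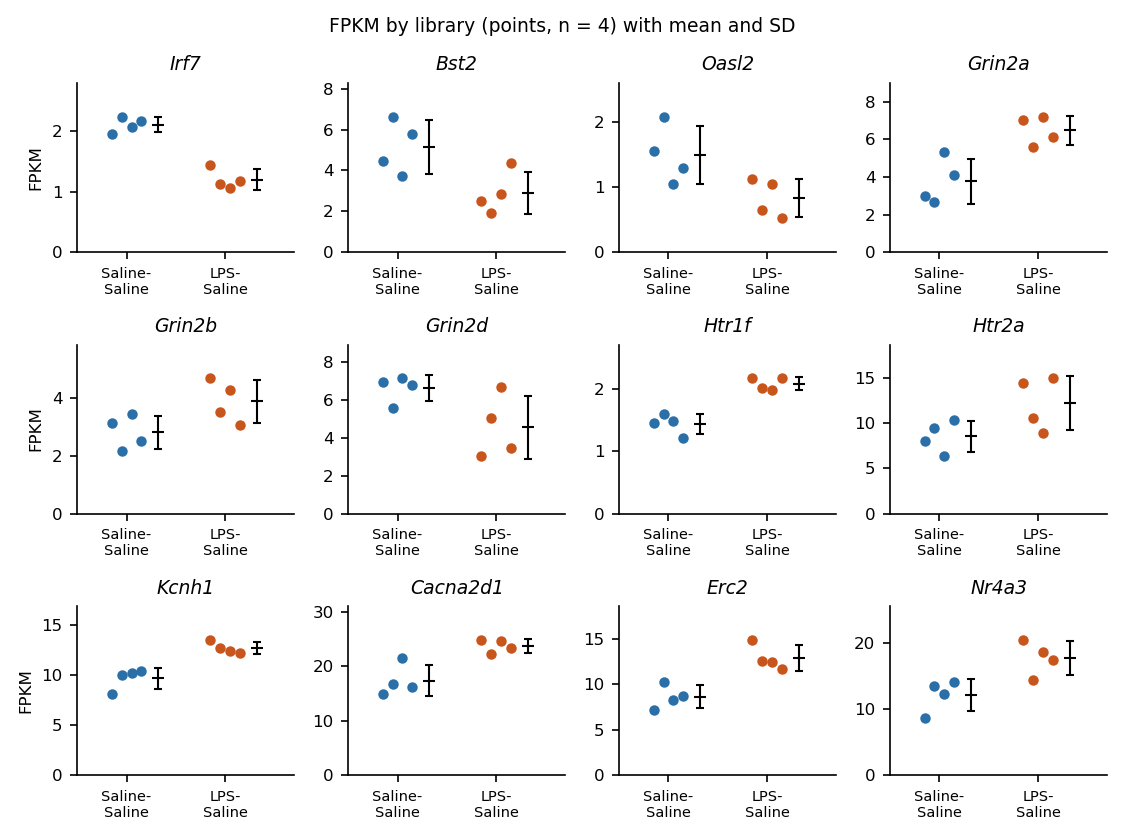
FPKM of 12 genes in the 4 Saline-Saline and 4 LPS-Saline libraries (points), with the mean and SD beside them and each axis starting at 0. Irf7, Grin2a, Htr1f, Kcnh1, Cacna2d1, Erc2 and Nr4a3 do not overlap between groups, and Bst2, Oasl2, Grin2b, Grin2d and Htr2a do.

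Cortical glutamatergic genes moved in the same direction as these neuronal genes. Of 14 tested cortical genes 13 were higher after LPS, with a median log2 fold change of 0.34, and none was a DEG. The list's mean level, relative to the Saline-Saline mean, was 0.62, 0.83, -0.66 and 0.72 in LPS-Saline 1 to 4 and -0.30, 0.28, -0.64 and 0.66 in Saline-Saline 1 to 4. Slc17a7, the vesicular glutamate transporter of cortical neurons, was at 318, 301, 91.2 and 308 FPKM after LPS and at 108, 224, 73.8 and 227 FPKM after saline. Without LPS-Saline 3 the median of the list was 0.82 and 5 of its genes rose. In LPS-Saline 3, where cortical genes were low, Grin2a at 7.21 FPKM and Kcna2 at 12 FPKM were the highest of the 8 libraries, and Cacna2d1 and Erc2 lay above every Saline-Saline library. Htr2a at 8.96 FPKM and Adcy1 at 13.4 FPKM were the lowest of the LPS libraries there. These are values of a single library, and the part of cortical tissue in the neuronal results was not tested for any gene.

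Immediate early genes, which neurons switch on within minutes of firing, were higher in 19 of 21 tested members, with a median log2 fold change of 0.35. Nr4a3 and Homer1 rose and none fell. Nr4a3, an orphan nuclear receptor, was at 20.5, 14.4, 18.7 and 17.4 FPKM after LPS and at 8.66, 13.4, 12.3 and 14.1 FPKM after saline. The lowest LPS-Saline library was just above the highest Saline-Saline library. LPS-Saline minus Saline-Saline was 0.56 ± 0.17 on the log2 scale (SE, limma p = 0.00839, adjusted p = 0.679, exact permutation p = 0.0286), past the limits in all 8 fits without a library but not in the fit of all 4 injection groups together.

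Fos and Arc, the activity genes used most widely, did not pass. Fos was at 39.7 ± 9.96 against 29.5 ± 7.11 FPKM and Arc at 64.8 ± 12.8 against 47.4 ± 14.5 FPKM (SD, n = 4). The level of the list was lowest in Saline-Saline 1, at -0.38 relative to the Saline-Saline mean, and without it the median was 0.21 and 1 gene rose. The number that rose was 1 without LPS-Saline 1, 3 to 4 without LPS-Saline 2, Saline-Saline 2 or Saline-Saline 3, 6 without Saline-Saline 4 and 8 without LPS-Saline 3.

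Of 8 tested opioid genes, a peptide precursor fell and none rose, whereas 2 rose without Saline-Saline 3. Pomc, the precursor of beta-endorphin, was at 1.76, 0.928, 2.15 and 1.17 FPKM after LPS and at 2, 2.54, 2.24 and 2.26 FPKM after saline. LPS-Saline 2 and 4 were low, and only LPS-Saline 3 reached the control range. The log2 fold change was -0.62 ± 0.26 (SE, limma p = 0.0402, adjusted p = 0.736, exact permutation p = 0.0571), from 15 to 43 reads, and the call was lost without any Saline-Saline library or without LPS-Saline 2 or 4 (-0.81 to -0.43). Oprm1, Oprd1 and Oprk1, the mu, delta and kappa receptors, had log2 fold changes of 0.35 ± 0.38, 0.67 ± 0.33 and 0.41 ± 0.19 (SE). Penk, abundant in the NAc, was at 394 ± 62.5 and 417 ± 159 FPKM (SD, n = 4).

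In the dopamine list none of 11 tested genes was a DEG, and Drd1 and Drd2 had log2 fold changes of 0.32 ± 0.24 and -0.05 ± 0.21 (SE). Ddc, the decarboxylase that makes dopamine and serotonin, was at 1.61 ± 0.475 FPKM after LPS and 2.23 ± 0.223 FPKM after saline (SD, n = 4), with a limma p of 0.0655. Ddc passed the limits without LPS-Saline 3, in the fit of all 4 injection groups and with limma-voom on recovered reads. Gchfr, a protein that mediates feedback inhibition of GTP cyclohydrolase, the first enzyme of tetrahydrobiopterin synthesis, fell. It was at 2.47, 2.08, 3.55 and 2.19 FPKM after LPS and at 4.72, 3.66, 7.04 and 4.43 FPKM after saline. Every LPS-Saline library was below every Saline-Saline library. For Gchfr the log2 fold change was -0.91 ± 0.23 (SE, limma p = 0.00348, adjusted p = 0.661, exact permutation p = 0.0286), it passed in all 8 fits, and its reads ran from 19 to 64. Gch1, the cyclohydrolase, had a log2 fold change of 0.28 ± 0.45 (SE).

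In the neurotrophin list, the receptors Ngfr and Gfra1 fell. Ngfr, the p75 receptor, was at 0.813, 1.34, 1.81 and 1.14 FPKM after LPS and at 2.18, 1.91, 2.17 and 12.5 FPKM after saline. The groups did not overlap, by a margin of 1.81 to 1.91 FPKM, and Saline-Saline 4 stood far above the other controls. On the log2 scale the difference was -1.35 ± 0.57 (SE, limma p = 0.0406, adjusted p = 0.736, exact permutation p = 0.0286) and -0.72 at its smallest, and Ngfr lost the call without LPS-Saline 1, 2 or 4. Gfra1, the GDNF co-receptor, was at 7.69 ± 2.07 and 10.6 ± 1.74 FPKM (SD, n = 4) and lost it without LPS-Saline 2 or 4 or Saline-Saline 1 or 2 (-0.62 to -0.31).

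Energy and translation genes differed little. Of 78 tested nuclear genes of oxidative phosphorylation the median log2 fold change was -0.01, and Cox5b, a subunit of cytochrome c oxidase, fell. It was at 267, 390.4, 263 and 281 FPKM after LPS and at 367, 376, 413 and 423 FPKM after saline, so that LPS-Saline 2 alone lay within the control range. Cox5b had a log2 fold change of -0.41 ± 0.13 (SE, limma p = 0.00983, adjusted p = 0.679, exact permutation p = 0.0857), and the call was lost without LPS-Saline 1 or 3 or Saline-Saline 4 (-0.54 to -0.35). Of 83 tested entries of cytosolic ribosomal proteins 69 had negative fold changes, with a median of -0.07. The entry that fell was a copy of Rps29 with 1 to 5 reads, which cannot be told from other copies. No glucocorticoid response gene of 20, clock gene of 18 or heat shock and cold-inducible gene of 12 was a DEG, and with a library left out at most 2, 1 and 1 of them passed.

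The leading genes, with at least 10 reads and no overlap between groups, were 55 higher and 35 lower genes with a symbol, and the 12 of each direction with the smallest p are given here. Because no overlap was required, their exact permutation p was bound to be 0.0286. Fam131a came first, at 15.1, 9.66, 4.6 and 6.7 FPKM after LPS and at 2.46, 1.15, 1.15 and 1.3 FPKM after saline. Its log2 fold change was 2.43 ± 0.37 (SE, limma p = 0.000107, adjusted p = 0.391, exact permutation p = 0.0286). It overlaps Map3k13 on the same strand and another gene model on the opposite strand, so that reads of these genes may be mixed in its value. Creg2, a secreted glycoprotein of brain whose level is uncertain where it overlaps SNORA17 on the other strand, was at 13.1, 16, 14.4 and 14.8 FPKM after LPS and at 8.95, 11.1, 8.8 and 9.35 FPKM after saline. Both groups were tight, and Creg2 had a log2 fold change of 0.61 ± 0.10 (SE, limma p = 0.00016, adjusted p = 0.404, exact permutation p = 0.0286).

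Rock2, a kinase that acts on the actin cytoskeleton, was at 41.8, 37.6, 33.8 and 41.2 FPKM after LPS and at 26.6, 29.4, 27.4 and 30.8 FPKM after saline. Frrs1l, an assembly factor of AMPA receptors, was at 39.2, 35.1, 39.7 and 34.5 FPKM after LPS and at 24.9, 24.1, 29.5 and 29.4 FPKM after saline. Napb, which helps to take spent SNARE complexes apart, was at 121, 109, 108 and 131 FPKM after LPS and at 82.7, 86.8, 79.8 and 96.5 FPKM after saline. These 3 well-covered genes, with at least 322 reads in every library, were each higher in 4 of 4 LPS-Saline libraries, with log2 fold changes of 0.43 ± 0.08, 0.46 ± 0.09 and 0.44 ± 0.09 (SE, limma, adjusted p = 0.539 for each).

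A pair of enzymes of proteoglycan sugar chains also rose. Xylt1, which starts the chains, had a log2 fold change of 0.52 ± 0.11 (SE), and Hs6st3, a heparan sulfate 6-O-sulfotransferase, had 0.89 ± 0.20 (SE). The other leading higher genes were Erc2, Cacna2d1 and Kcnh1, described above, Mfap3l at 0.41 ± 0.10 and Tiparp, an ADP-ribosyltransferase induced by the aryl hydrocarbon receptor, at 0.40 ± 0.10 (log2, SE). Mfap3l did not pass without LPS-Saline 1 or Saline-Saline 4 (down to 0.32), and Tiparp without LPS-Saline 3 or 4 or Saline-Saline 3 (down to 0.36).

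Lhfpl5, known as a subunit of the hair cell mechanotransduction channel, was at 5.41, 6.61, 6.02 and 5.82 FPKM after LPS and at 8.38, 8.23, 7.95 and 7.52 FPKM after saline. On the log2 scale the difference was -0.42 ± 0.09 (SE, limma p = 0.00115, adjusted p = 0.643, exact permutation p = 0.0286), and it did not pass with a pseudocount of 1. Nrsn2, a vesicle membrane protein of neurons, was at 49.2, 63.6, 73.8 and 57.1 FPKM after LPS and at 95.9, 86.9, 85.7 and 79.7 FPKM after saline, a log2 fold change of -0.53 ± 0.12 (SE). Ass1, argininosuccinate synthase, which recycles citrulline to arginine for nitric oxide synthesis, was at 15.7, 15.3, 18.5 and 15.3 FPKM after LPS and at 27.1, 23, 21.2 and 19.2 FPKM after saline, and it overlaps SNORA26 on the other strand, which leaves it uncertain. In each of these the groups stood clear of each other, which the choice of leading genes required.

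Clip3, a linker protein of membrane traffic and microtubules, had the largest fall among them, at 0.575, 1.04, 0.729 and 1.27 FPKM after LPS and 10.3, 3.95, 1.67 and 9.31 FPKM after saline. Between groups the difference was -2.41 ± 0.54 on the log2 scale (SE), and the controls themselves differed widely. Tox2, an HMG-box transcription factor, had a log2 fold change of -0.72 ± 0.17 (SE) and Abhd14a -0.59 ± 0.14 (SE), and both passed in all 8 fits. The remaining lower genes, beside Irf7 and Gchfr, were Zfp358, a zinc finger gene, Ska2, a kinetochore component whose model contains Mir301a and is uncertain for it, Vat1, a vesicle membrane protein, and Cotl1, an actin-binding protein. Their log2 fold changes lay between -0.43 and -0.38, close to the fold limit. Ska2 did not pass without Saline-Saline 3, Zfp358 without LPS-Saline 1 or 3 or Saline-Saline 2 or 4, and Vat1 and Cotl1 without LPS-Saline 1, LPS-Saline 4 or Saline-Saline 1, nor Cotl1 without Saline-Saline 4 (down to -0.38, -0.35, -0.32 and -0.32).

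Short gene models passed the limits more often than long ones. The median length was 1445 bases for the higher DEGs, 1149 for the lower DEGs and 2163 for all genes tested. Among genes with at least 10 reads these medians were closer, at 1936, 1391 and 2288 bases. Of 1889 tested gene models of 4000 to 6000 bases, 21 were higher and 5 lower DEGs (1.38% in all), and of 879 longer ones 5 and 2 (0.796%), whereas of 2702 models under 1000 bases 72 were higher and 85 lower DEGs (5.81%). The median log2 fold change was 0.07 for the 879 tested genes of at least 6000 bases and -0.04 for the 2702 under 1000 bases. Long genes were not higher in every LPS-Saline library. Relative to the Saline-Saline mean, the mean log2 level of the longest genes was 0.10, 0.08, 0.13 and -0.05 in LPS-Saline 1 to 4 and 0.06, -0.07, -0.01 and 0.02 in Saline-Saline 1 to 4. Grin2a, Kcnh1, Rock2 and Cacna2d1 are among the models over 4000 bases, and the part of gene length in their values was not tested. Of the 358 DEGs, 264 were protein-coding, 34 were miRNA genes and 21 were snoRNA genes. The miRNA DEGs had a median of 2.63 reads per library, and since the libraries were made from polyadenylated RNA, their values do not measure mature miRNAs.

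The same LPS history was also compared in rats that received heroin instead of the later saline, a comparison that shares no library with the one above. LPS-Heroin against Saline-Heroin held 332 DEGs of 15121 genes tested (2.2%), with 637 genes (4.21%) at an unadjusted p up to 0.05 and a smallest adjusted p of 0.527 in limma. Of the 358 DEGs without heroin, 338 were tested in both, and 200 of these (59.2%) had the same direction in the heroin rats, beside 53.9% of all 14819 genes tested in both. With at least 10 reads the share was 176 of 279 (63.1%). These genes were chosen by their difference without heroin, so a smaller difference in other rats follows from the choice and is no measure of a change with heroin. The 175 higher DEGs tested in both had a median of 0.58 without heroin and 0.08 with heroin, and the 163 lower ones had -0.59 and -0.05. Across all genes the log2 fold changes had a Pearson r of 0.08, across genes that are not independent replicates.

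DEGs of both comparisons numbered 15, which is 4.44% of the 338 and 4.76% of the 315 heroin-rat DEGs tested in both, and 10 of them had the same direction. Of the leading genes, 11 of 12 higher and 7 of 12 lower ones kept their direction, and Fam131a was a DEG there too, with a log2 fold change of 1.60 ± 0.66 (SE). Its values were 4.97, 14.5, 2.32 and 16.9 FPKM in LPS-Heroin 1 to 4 and 5.95, 1.97, 1.85 and 1.4 FPKM in Saline-Heroin 1 to 4, which overlapped. Irf7, Grin2a and Htr2a had values of 0.08 ± 0.54, 0.15 ± 0.26 and 0.08 ± 0.14 (log2, SE) in the heroin rats. Bst2 and Oasl2 had -0.55 ± 0.35 and -0.46 ± 0.37 (log2, SE) and were not DEGs there. Of the interferon-stimulated genes, 8 of 19 were higher, with a median of -0.06. Immediate early genes had 18 of 21 members higher and a median of 0.38 beside 0.35 without heroin. Potassium channels had 33 of 48 members higher and a median of 0.07, beside 41 of 48 and 0.21 without heroin. Calcium/calmodulin kinases and long-term potentiation had 14 of 31 higher and a median of -0.01, beside 27 of 31 and 0.12 without heroin. Presynaptic vesicle release had 20 of 31 (0.02), scaffolds and adhesion 13 of 24 (0.01) and voltage-gated channels 15 of 28 (0.04). Calcium pumps, exchangers and release channels had 16 of 24 (0.09).

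**Figure D5:**
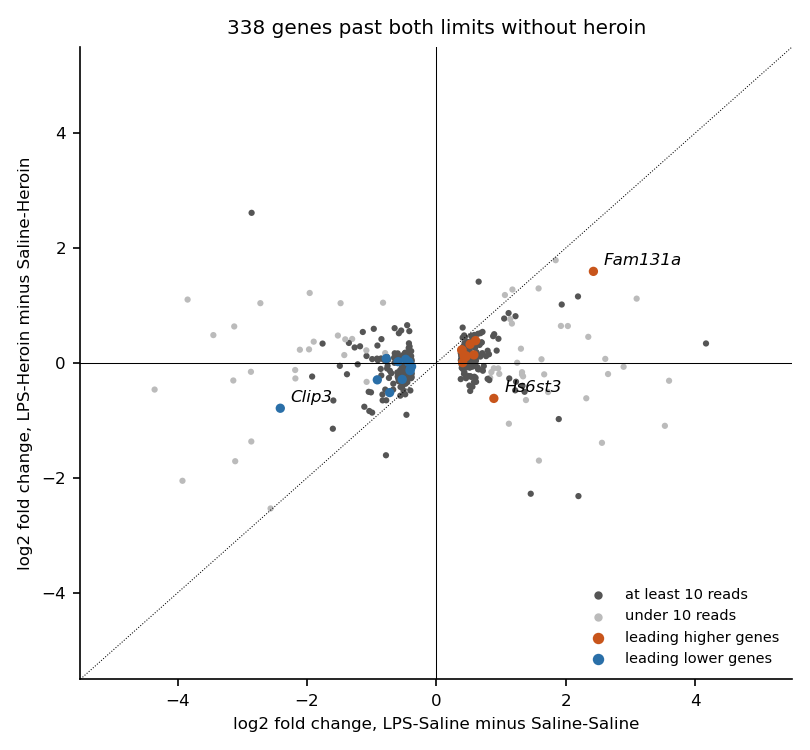
Log2 fold changes after LPS of the 338 DEGs tested in both comparisons, without heroin on the horizontal axis and with heroin on the vertical axis, grey by read depth and coloured for the 24 leading genes, with a dotted line where both are equal. Most points lie near 0 on the vertical axis, and 200 of 338 share their direction.

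Whether the LPS difference itself changed with heroin was tested as an interaction over 16 libraries. Past the same limits were 349 of 15113 genes (2.31%), none with an adjusted p under 0.05 in limma, where 607 genes (4.02%) had an unadjusted p up to 0.05. The genes named here were chosen by their difference without heroin, which enters the interaction, so their share past the limits cannot be read against all genes. Htr1f had the smallest p of the genes named here, 0.000699 in limma. It was at 1.72, 1.9, 1.42 and 1.41 FPKM in LPS-Heroin rats and at 2.1, 1.87, 2.55 and 2.04 FPKM in Saline-Heroin rats, the reverse order of the saline-injected rats, and its interaction was -0.90 ± 0.21 (log2, SE, limma adjusted p = 0.992). The interaction of Lhfpl5 was 0.43 ± 0.14 and that of Hs6st3 was -1.51 ± 0.53 (log2, SE). For Grin2a it was -0.66 ± 0.36 (log2, SE), which did not pass the limit for p.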

How the data were processed

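RNA-seq values of 24 NAc libraries in 6 groups of 4 were read, and 8 of them enter the main comparison. Per the labels and the study's methods, polyadenylated RNA from 300.0 ng of total RNA gave directional libraries. Per the submitters' processing notes, fastp, HISAT2 and featureCounts were used on build rn6, with versions, annotation release and strand setting not given in the sources used here. The authors deposited FPKM values for 32545 genes. FPKM times gene length gave whole reads for 100% of values (tolerance 0.01), so depth per gene is known, and intervals would cover counting error only. Named genes that overlap another gene are given as uncertain.

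Groups came from the library titles. For each comparison log2(FPKM + 0.1) was fitted with limma-trend (limma 3.58.1, R 4.3.3) keeping genes whose FPKM averaged 0.5 or more, and DEGs met limits that the study's methods give for comparing data sets (its own DEG call was by adjusted p), an unadjusted p of at most 0.05 and a fold of at least 1.3 (0.378 on the log2 scale). Fold changes of low genes are understated by the pseudocount. Samples are described as unpooled biological replicates, and the p-values treat each library as independent. The rats were pair-housed and the labels do not name their cages, so a likeness of cage mates could not be modelled. Single genes were also compared by exact 2-sided permutation. Its p is always 0.0286 for groups that do not overlap, a condition by which the leading genes were chosen. The fit was also run on simulated reads with the same spread for every gene and no tissue differences between libraries. That run therefore does not show how the fit performs on these libraries.

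Named were the 12 higher and 12 lower DEGs of smallest p that had a symbol, a mean of at least 10 reads and no overlap, list members that were DEGs (at most 5 a list), 4 genes named by the study (Grin2a, Grin2d, Htr2a, Ddc) and 11 genes of inflammation and glia. Some genes that this rule or the lists hold are not reported here. Other genes, such as Ttr, Slc17a7, Fos and Kcnma1, were named after their values were seen. The 44 gene lists and the genes to describe were chosen with earlier results of these data known. Alternatives were other pseudocounts, filters, scalings, limits and fits, limma-voom on the recovered reads, a replicate block and leaving out each library. After the data were seen, a minimum of 10 reads and list counts without each library were added. Same-numbered LPS-Saline and Saline-Saline libraries deviated together by correlations of -0.00425 to 0.114, and differently numbered ones by -0.12 to 0.0608. The numbers were not treated as pairs, since the labels and methods do not say what they stand for.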

Additional observations from a re-analysis of the deposited data

Results flagged for a closer look

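Of 206 sets of 4 values looked at, 17 had a library apart from the other 3 by Dixon's criterion, and chance alone flags about 1 in 20 such sets. Among DEGs these were Fam131a in Saline-Saline 1 (2.46 FPKM, the highest of its group), Tiparp in LPS-Saline 2 (7.22 FPKM, the lowest), Ass1 in LPS-Saline 3 (18.5 FPKM, the highest), Ngfr in Saline-Saline 4 (12.5 FPKM, the highest) and Cox5b in LPS-Saline 2 (390.4 FPKM, the highest). Among glial and cytokine genes they were Aif1 in Saline-Saline 2 (14.2 FPKM, the highest), P2ry12 in Saline-Saline 1 (8.52 FPKM, the lowest), Il1b in LPS-Saline 1 (0.0972 FPKM, the highest) and in Saline-Saline 1 (0.0445 FPKM, the lowest), and Tnf in LPS-Saline 1 (0.0804 FPKM, the highest), where the values of Il1b and Tnf rest on 0 to 3 reads.

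For gene lists the library apart is given by its mean log2 level less the Saline-Saline mean. In LPS-Saline 3 cortical glutamatergic genes were lowest at -0.66, and in LPS-Saline 1 oligodendrocyte genes were highest at 0.15. LPS-Saline 4 was highest for reactive astrocyte genes at 0.96 and for heat shock and cold-inducible genes at 0.33. Saline-Saline 2 was highest for microglial genes at 0.24 and for cytosolic ribosomal proteins at 0.16, and lowest for kynurenine and tetrahydrobiopterin genes at -0.18.

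In 8 of the named genes the interaction of LPS and heroin passed both limits in limma, and none passed after adjustment. Most of the named genes were chosen as DEGs without heroin, and that difference enters the interaction, so their number cannot be read against the 2.31% of all genes that passed. The interaction on the log2 scale, heroin rats minus saline rats, was positive for Lhfpl5 (0.43), Ska2 (0.45), Kcne2 (1.20), Cox5b (0.70) and the Rps29 copy (1.87). It was negative for Hs6st3 (-1.51), Ly86 (-0.83) and Htr1f (-0.90).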

How the results depend on the processing

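The number of DEGs, 358, stayed within 1.5 times under other pseudocounts (292 and 348), a minimum mean of 1 FPKM (305), quantile normalization (358), equal library medians (364), all injection groups in a single fit (355), robust moderation (355), limma-voom on recovered reads (373) and a minimum of 10 reads (284, added after the data were seen). It was 582 with no filter on low values, 111 at p up to 0.01, 1002 with no fold limit and 105 at a log2 fold change of 1 or more. Leaving out a library gave 310 to 625 DEGs, the highest without LPS-Saline 3. At an adjusted p under 0.05 there were 7 genes with no filter, all small RNAs with 0 to 4 reads, and 0 to 1 without a library. The 332 DEGs of the heroin rats were 524 with no filter, 70 at p up to 0.01, 637 with no fold limit and 119 at a log2 fold change of 1 or more, and the 349 interaction genes were 565 with no filter. Leaving out a library gave 301 to 446 and 290 to 446. With the replicate number as a block, 481 DEGs were found without heroin, 308 in heroin rats and 346 for the interaction, and Ly86, Oasl2, Pomc and the Rps29 copy lost their calls. With this block the smallest adjusted p without heroin was 0.0893 in limma. LPS-Saline 2, 3 and 4 were each closest to the Saline-Saline library of the same number, whereas LPS-Saline 1 was closest to Saline-Saline 2. The labels and methods do not say what the number stands for, so whether it marks a shared batch cannot be told. Other settings that ended calls of named genes were a pseudocount of 1 (Kcnh1, Tiparp, Lhfpl5, Zfp358, Ska2, Grin2b, Htr1f and Ngfr), the fit of all injection groups (Tiparp, Irf7, Grin2b, Nr4a3, Gfra1, Ngfr and Rps29), quantile normalization (Pomc, Cox5b and Rps29), limma-voom (Ngfr and Rps29), equal medians (Kcnh1) and no filter (Grin2b). No named gene that passed the limits changed direction. With equal medians the DEGs were 155 higher and 209 lower. The median log2 fold change of 19 of 44 lists changed sign without a library, and of 3 of them in another setting, and except for red blood cells (0.29, and -0.10 without LPS-Saline 4) these medians lay within 0.1 of 0. The uncalled Aif1 (-0.14 to 0.12) and Nfkbia (-0.16 to 0.06) also changed sign. Under 10 reads the fold change of a gene rests on single reads.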
